A study of Homo sapiens with 9 samples.

Results

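ACTA2, the actin of smooth muscle, was examined beside 8 other actin and contractile genes: the actins ACTB, ACTG1, ACTG2 and ACTC1, the smooth muscle genes TAGLN, MYL9 and CNN1, and SRF. These 9 genes were taken by symbol from the 78986 genes of the count table, and all 9 were found in it. ACTA2 was selected on its fall in the mutant lines of these same libraries, so its values against WT are given below as a description, with no test. The question was whether that fall was shared by the other actins and by the genes that SRF is known to drive.

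Actins are the filament proteins on which myosin pulls. ACTB and ACTG1 are the cytoplasmic forms found in nearly every cell, ACTA2 and ACTG2 are the smooth muscle forms, and ACTC1 and ACTA1 are the forms of heart and skeletal muscle. SRF is a transcription factor that binds a short element called the CArG box, and with the cofactors of the MRTF and myocardin family it drives many muscle and cytoskeletal genes, among them TAGLN (transgelin, an actin-bundling protein), MYL9 (a myosin regulatory light chain) and CNN1 (calponin, an actin-binding protein).

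RNA was sequenced from stable HEK293T cells, a human embryonic kidney line that carries the large T antigen of SV40 and its own p53 gene. Cells were transduced with lentivirus for WT p53 (the control), for G245S p53, whose substitution alters the fold of the DNA-binding domain, or for R273H p53, whose substitution removes a contact with DNA, and all 3 lines were kept in puromycin at 1.5 μg/mL. The control cells therefore also overexpressed p53, and the sources used here name neither the promoter of the viral construct nor single clones. None of the 9 libraries came from cells without added p53. A fall in the mutants and a rise in the control therefore cannot be told apart, and "fall" below means lower than in WT. There were 3 biological replicates per line, and the labels call the line HEK293 and the cell type epithelial. The authors deposited expected counts per gene, in which reads that map to several genes are shared as fractions. Values are given as CPM, counts scaled by library size and by TMM factors over all 9 libraries.

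Of the 9 libraries, 8 held between 7325514 and 9667306 counts, and WT replicate 3 held 1486315. By a rule on depth alone (a total below 0.5 times the median of the other 8) that library was not fitted, so WT is represented by 2 libraries and each mutant by 3. The authors likewise set aside a WT library, giving shallow sequencing and a sample of inadequate quality as reasons. The paper does not name the replicate. WT replicate 3 also stood apart in composition. The epithelial list (EPCAM, CDH1, KRT8, KRT18, KRT19) summed to 267 CPM there and to between 73.4 and 84.6 CPM in the other 8. In those 8 libraries the endothelial list summed to at most 0.594 CPM and the blood list to at most 1.23 CPM. The values of WT replicate 3 are given for part of the genes below.

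ACTA2 (ENSG00000107796; GRCh38 chr10:88934822-88991339, minus strand) was 4.32 times lower in G245S and 2.95 times lower in R273H than in WT. It was at 22.1 and 24.7 CPM in WT replicates 1 and 2, from 192 and 191.5 counts. In G245S it was at 3.77, 7.73 and 4.92 CPM, and in R273H at 6.45, 10.4 and 7.13 CPM. Every mutant library lay below both WT libraries, and the highest mutant library was R273H replicate 2. WT replicate 3, which was not fitted and which stood apart in composition, was at 22.5 CPM (exact Poisson 95% interval 15.4 to 31.8 CPM, counting error only), above all 6 mutant libraries. The WT mean was 23.4 ± 1.84 CPM (SD, n = 2), the G245S mean 5.48 ± 2.04 CPM and the R273H mean 7.99 ± 2.103 CPM (SD, n = 3 for both mutants). On the log2 scale its fold change was −2.11 in G245S and −1.56 in R273H. Among the 11632 genes tested with a mean of at least 5 CPM, ACTA2 had the second lowest log2 fold change in G245S and the third lowest in R273H. In such bulk samples, fewer cells expressing a gene and less RNA per cell cannot be told apart.

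**Figure D1:**
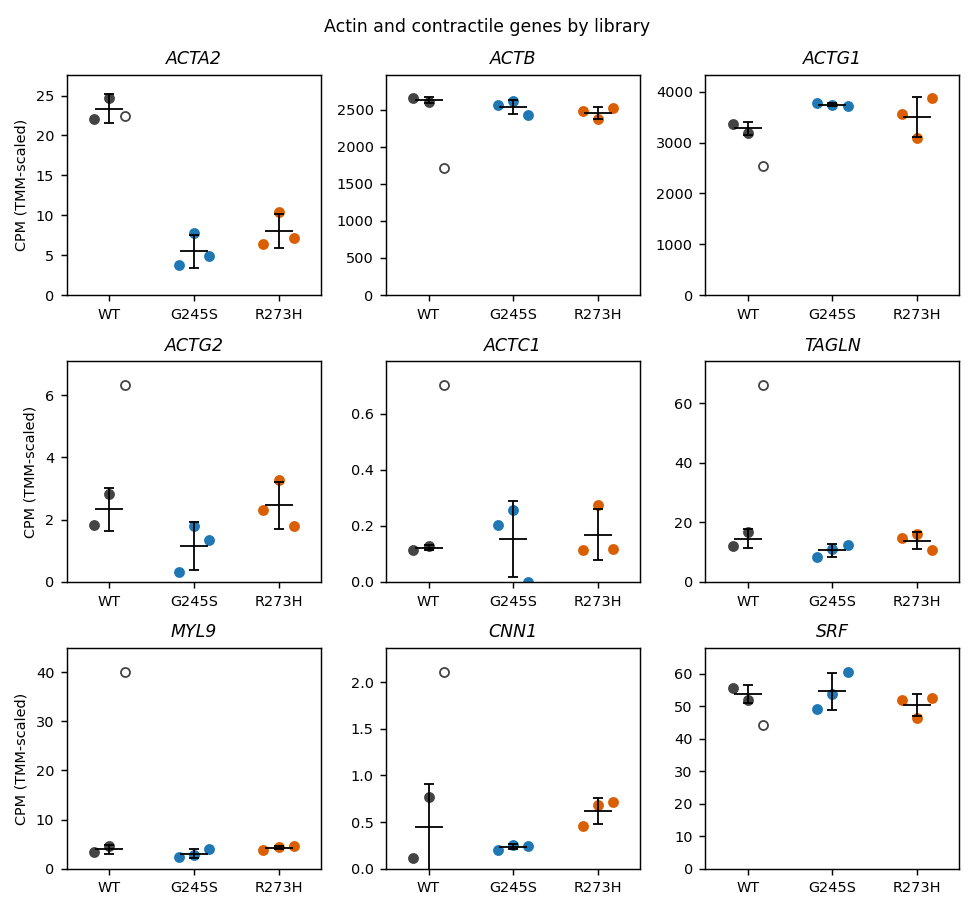
CPM of the 9 genes (y axis, TMM-scaled, each from 0) in every library, by line (x axis). Filled points are the 8 libraries fitted, the open point is WT replicate 3, and the black bars are the mean ± SD of the fitted libraries (n = 2 for WT, n = 3 for each mutant, cut off at 0 for CNN1). The ACTA2 points of both mutants, 3.77 to 10.4 CPM, lie below all 3 WT points, and in no other panel do both mutants lie below all WT points.

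ACTA2 was a minor actin in these cells. ACTB and ACTG1 held 99.5% to 99.9% of the counts of the 6 actin genes (ACTA1 included) in each of the 8 fitted libraries. ACTA2 held 0.394% ± 0.0407 (SD, n = 2) of the actin counts in WT, 0.0868% ± 0.0315 (SD, n = 3) in G245S and 0.136% ± 0.0470 (SD, n = 3) in R273H. Scaled to the length of all annotated exons, ACTA2 was at 3.65 ± 0.288 CPM per kb in WT (SD, n = 2), against 597 ± 8.74 for ACTB, 810 ± 30.3 for ACTG1 and 0.612 ± 0.183 for ACTG2.

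No other member passed the threshold in either comparison with WT. Of the 8, 6 passed the filter on low counts and were tested, and 0 of these 6 had an adjusted p under 0.05 in G245S, where 0.126% of all 15893 genes tested did, or in R273H, where 0.137% of 16022 did (quasi-likelihood test of edgeR, adjusted by Benjamini-Hochberg over all genes). At an unadjusted p under 0.05 there were 2 of the 6 in G245S, ACTG2 and TAGLN, and 0 in R273H, beside 1058 and 979 of all genes. By position alone, with every mutant library on 1 side of both fitted WT libraries, 1 of the 6 was below WT in G245S (ACTG2; 10.8% of all genes were) and 1 above (ACTG1; 11.3%). In R273H, 1 of the 6 was below (ACTB; 10.5% of all genes) and 0 above (10.2%). With so few members these shares cannot be told from the background. Both comparisons use the same 2 WT libraries.

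ACTB, the beta actin of the cytoplasm, was at 2657 and 2602 CPM in WT, at 2560, 2623 and 2433 CPM in G245S, and at 2479, 2371 and 2525 CPM in R273H. Its log2 fold change was −0.04 in G245S (95% interval −0.28 to 0.19, adjusted p = 0.971 from edgeR) and −0.10 in R273H (−0.32 to 0.13, adjusted p = 0.982). These intervals correspond to levels between 0.825 and 1.14 times WT in G245S and between 0.80 and 1.095 times WT in R273H. WT replicate 3 was at 1710 CPM, and with all 3 WT libraries the estimates turned to 0.13 and 0.08.

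ACTG1, the gamma actin of the cytoplasm, was at 3368 and 3195 CPM in WT, at 3788, 3747 and 3712 CPM in G245S, and at 3568, 3090 and 3875 CPM in R273H. All 3 G245S libraries lay above both fitted WT libraries, and the R273H libraries overlapped them. WT replicate 3 was at 2536 CPM, below the other 8 libraries. ACTG1 had a log2 fold change of 0.20 in G245S (95% interval −0.04 to 0.44, adjusted p = 0.797 from edgeR) and 0.10 in R273H (−0.16 to 0.36, adjusted p = 0.994). The ratio of ACTG1 to ACTB counts was 1.25 ± 0.0284 in WT (SD, n = 2), 1.48 ± 0.0488 in G245S and 1.43 ± 0.116 in R273H (SD, n = 3), and it was 1.48 in WT replicate 3. With that library included, WT and both mutants overlapped in this ratio.

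ACTG2, the other smooth muscle actin, is the member whose estimate in G245S came nearest to that of ACTA2, from few counts. It was at 1.84 and 2.83 CPM in WT, at 0.306, 1.80 and 1.35 CPM in G245S, and at 2.30, 3.28 and 1.78 CPM in R273H. G245S replicate 1, with 3.25 counts, was the lowest library, and the R273H libraries spanned the WT values. In G245S the log2 fold change was −1.05 (95% interval −2.11 to −0.00061, unadjusted p = 0.0499, adjusted p = 0.751 from edgeR), and without G245S replicate 1 it was −0.55. In R273H it was 0.07 (95% interval −0.65 to 0.79, adjusted p = 0.997). The difference between ACTG2 and ACTA2 was not tested.

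**Figure D2:**
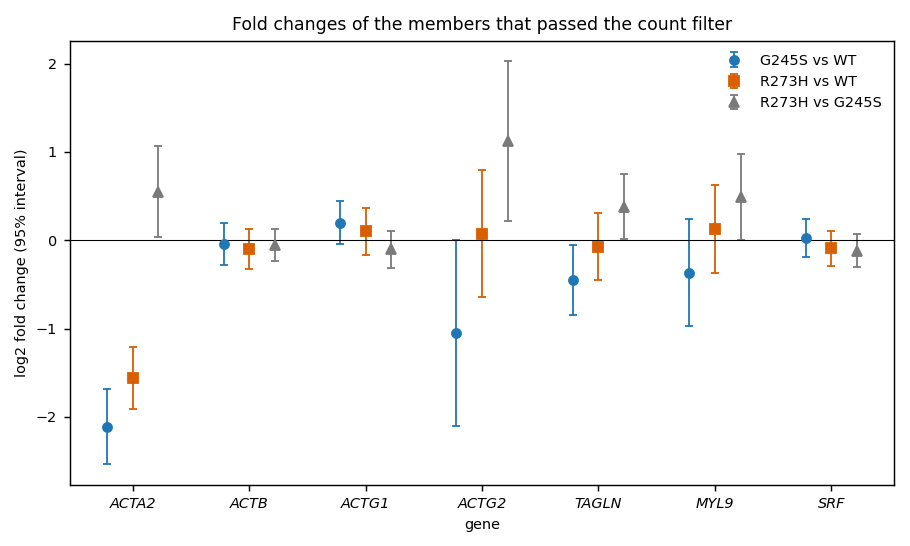
Log2 fold change (y axis) with its 95% interval for the 7 members that passed the count filter (x axis), for G245S against WT, R273H against WT and R273H against G245S. ACTA2 lies at −2.11 and −1.56 against WT. Its intervals against WT take no account of its selection on that fall and are no test. Every other member's interval against WT includes 0 or, for ACTG2 and TAGLN in G245S, ends just below it.

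TAGLN was at 12.2 and 16.8 CPM in WT, at 8.26, 11.1 and 12.4 CPM in G245S, and at 14.7, 15.99 and 10.6 CPM in R273H. The lines overlapped. TAGLN had a log2 fold change of −0.45 in G245S (95% interval −0.85 to −0.05, unadjusted p = 0.0287, adjusted p = 0.701 from edgeR) and −0.07 in R273H (−0.46 to 0.31, adjusted p = 0.997). TAGLN shares 2498 exon bases, 38.1% of its own, with a second gene model on its own strand (ENSG00000280143). Its counts were not whole numbers in any of the 9 libraries. How many of its reads were counted elsewhere or left out was not tested. That gene model held between 0.75 and 4.75 counts per library, against 80.8 to 131 for TAGLN.

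MYL9 was at 3.33 and 4.63 CPM in WT, at 2.45, 2.71 and 4.06 CPM in G245S, and at 3.92, 4.37 and 4.63 CPM in R273H, and the lines overlapped. MYL9 had a log2 fold change of −0.37 in G245S (95% interval −0.98 to 0.24, adjusted p = 0.858 from edgeR) and 0.12 in R273H (−0.37 to 0.62, adjusted p = 0.997). CNN1 held 1 to 6 counts and ACTC1 0 to 2 counts per library, and neither passed the filter, so no difference in them was detectable at this depth. CNN1 was at 0.115 and 0.771 CPM in WT, 0.204, 0.258 and 0.246 CPM in G245S, and 0.461, 0.683 and 0.713 CPM in R273H. ACTC1 was at or below 0.273 CPM in all 8 fitted libraries, with 0 counts in G245S replicate 3.

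WT replicate 3 would have moved the estimates of TAGLN and MYL9 but brought neither past the threshold. It held TAGLN at 66.1 CPM, MYL9 at 40.1 CPM and ACTG2 at 6.33 CPM, each above the highest of the other 8 libraries (16.8, 4.63 and 3.28 CPM). With all 3 WT libraries in the fit, the log2 fold change of TAGLN was −1.07 in G245S and −0.66 in R273H, and that of MYL9 was −1.60 and −1.05, with edgeR's adjusted p between 0.842 and 0.950 for all 4. KRT19, a keratin of simple epithelia, was at 33.7 CPM in this library and at most 1.37 CPM in the other 8. The part of that difference in composition in the TAGLN and MYL9 values was not tested.

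**Figure D3:**
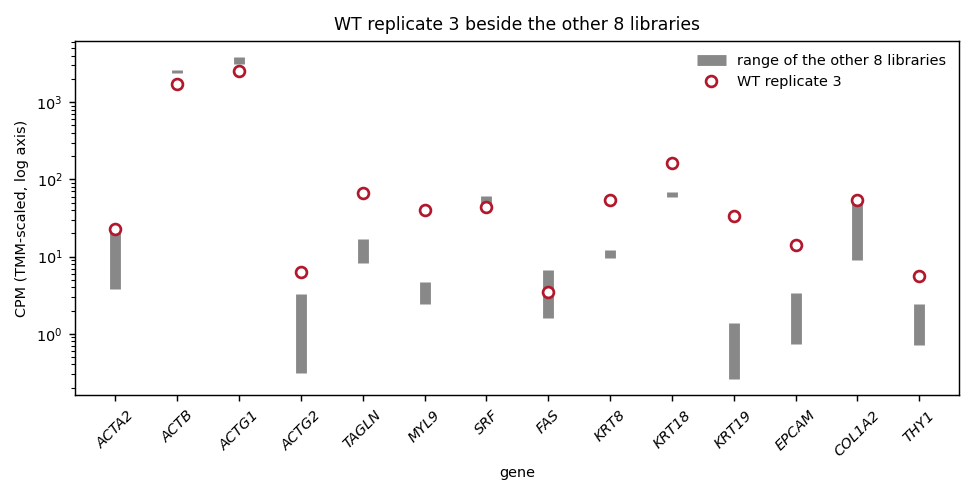
CPM (y axis, log scale) of 8 genes of the ACTA2 locus and the contractile set and of 6 epithelial and fibroblast markers (x axis). Grey bars span the lowest to the highest of the 8 fitted libraries and open circles are WT replicate 3. TAGLN at 66.1 CPM, MYL9 at 40.1 CPM and KRT19 at 33.7 CPM stand above the grey bars, and ACTA2 at 22.5 CPM is within its bar.

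SRF itself was at 55.6 and 51.8 CPM in WT, at 49.2, 53.9 and 60.6 CPM in G245S, and at 52.0, 46.5 and 52.6 CPM in R273H. Both mutants overlapped the fitted WT libraries. WT replicate 3 was at 44.3 CPM, below the other 8 libraries. SRF had a log2 fold change of 0.03 in G245S (95% interval −0.19 to 0.24, adjusted p = 0.982 from edgeR) and −0.09 in R273H (−0.29 to 0.11, adjusted p = 0.980).

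Between the mutants, 0 of the 7 members tested passed the threshold, as did 0% of all 15614 genes (741 had an unadjusted p under 0.05, and DESeq2 called 1). ACTA2 was higher in R273H than in G245S by 0.55 on the log2 scale (95% interval 0.03 to 1.06, unadjusted p = 0.0380, adjusted p = 0.994 from edgeR), with overlapping libraries. ACTG2 was higher by 1.13 (95% interval 0.22 to 2.03, unadjusted p = 0.0182, adjusted p = 0.982), TAGLN by 0.38 (0.01 to 0.75, unadjusted p = 0.0440, adjusted p = 0.994) and MYL9 by 0.49 (−0.00034 to 0.98, adjusted p = 0.994). None of these differences passed correction. The libraries of ACTG2 and TAGLN moved with the fibroblast list (COL1A1, COL1A2, COL3A1, DCN, LUM, PDGFRB, THY1, POSTN). That list summed to 43.4 and 71.6 CPM in WT, 30.3 to 64.9 CPM in G245S and 54.5 to 122 CPM in R273H, mostly from the 3 collagens, while DCN was at or below 0.273 CPM in all 8 fitted libraries. Over these 8 libraries, Pearson's r of log2 CPM with the summed list was 0.87 for ACTG2, 0.83 for TAGLN, 0.60 for MYL9 and 0.28 for ACTA2, a description over libraries that share a scaling. The part of these markers in the differences was not tested.

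The other genes of contraction and of SRF control were counted over 7 lists of 92 genes, with none of the 9 members among them. In G245S 82 of them could be tested, and in R273H 83. In both comparisons 0 passed an adjusted p under 0.05 (edgeR), with 7 and 6 at an unadjusted p under 0.05. Over all genes tested, 0.126% of 15893 and 0.137% of 16022 passed, and 1058 and 979 had an unadjusted p under 0.05. With so few list genes, 0 calls here or in a single list below cannot be told from these shares. The median log2 fold change of the list genes was −0.02 in G245S and −0.0049 in R273H, beside medians of 0.0034 and 0.0023 over all genes tested. Between the mutants 82 list genes were tested, 0 passed and 5 had an unadjusted p under 0.05, beside 0 and 741 of all 15614 genes.

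In the smooth muscle contractile list 15 of 19 genes were tested, 0 passed in either direction, and the median was −0.11 in G245S and 0.04 in R273H. Its most abundant members were TAGLN2, a transgelin of non-muscle cells (log2 fold changes of 0.09 and 0.17 in G245S and R273H), CNN3, the calponin of non-muscle cells (−0.0074 and 0.0082), and CALD1, caldesmon (−0.36 and −0.37). CALD1 was at 91.5 and 114 CPM in WT and 70.5 to 98.5 CPM over the 6 mutant libraries, with an adjusted p of 0.684 and 0.418 (edgeR). In the list of SRF and MRTF targets 14 of 15 were tested, 0 passed, and the median was −0.04 in G245S and −0.06 in R273H. It was led by DSTN, an actin-severing protein (−0.13 and −0.03), FLNA, the crosslinker filamin A (−0.03 and −0.19), and ZYX, the focal adhesion protein zyxin (0.03 and 0.05).

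The immediate early genes, which SRF drives with the TCF cofactors, had 6 of 9 tested and 0 past the threshold, with medians of 0.10 and 0.13. Their most abundant members were MCL1 (0.12 and 0.16), IER2 (0.11 and 0.18) and JUNB (0.18 and 0.16). Of the SRF cofactors 5 of 6 were tested and 0 passed, with medians of 0.05 and 0.04. ELK1 was at 0.11 and 0.01, MRTFA at −0.04 and 0.17 and ELK4 at −0.02 and −0.08.

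All 13 genes of non-muscle myosin II and its regulators and all 18 genes of actin filament turnover were tested, and 0 passed in either comparison. The medians were −0.06 and −0.05 for the myosin list and −9.51e-05 and 0.04 for the turnover list. RHOA, the GTPase that activates myosin and MRTF, was at −0.04 and −0.04, the light chain MYL6 at −0.17 and −0.03 and the phosphatase subunit PPP1CB at −0.06 and −0.0039. Profilin (PFN1) was at −0.10 and −0.12, cofilin (CFL1) at 0.00029 and −0.01 and thymosin (TMSB10) at 0.02 and 0.06. In the TGF-beta list, a pathway known to induce ACTA2 in fibroblasts, 11 of its 12 genes entered the G245S fit and 12 the R273H fit, 0 passed, and the medians were 0.10 and −0.0061. SKI was at 0.10 and −0.07, SMAD2 at 0.10 and 0.01 and TGFBR1 at −0.08 and −0.19.

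**Figure D4:**
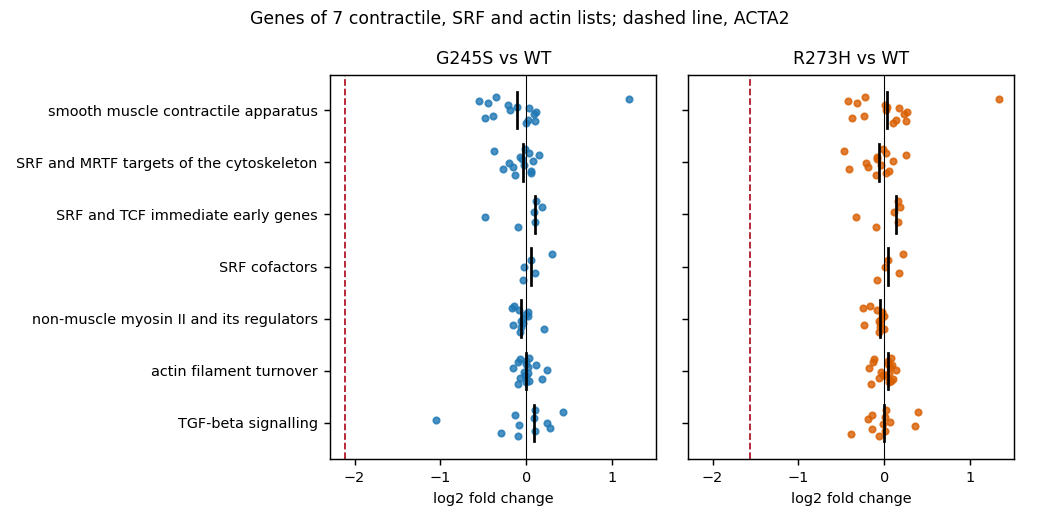
Log2 fold change against WT (x axis) of the tested genes of the 7 lists (y axis; vertical scatter within a list has no meaning), G245S on the left and R273H on the right. Black bars are list medians and the dashed line is ACTA2 (−2.11 and −1.56). No gene of any list lies as low as ACTA2, and the lowest in R273H is TGFB1I1 at −0.47.

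Some further genes of these lists were chosen after their values were seen. The lowest adjusted p of any list gene was that of CNN2, a calponin of non-muscle cells, in G245S (log2 fold change −0.45, adjusted p = 0.315 from edgeR) and that of TPM4 in R273H. CNN2 had −0.22 in R273H (adjusted p = 0.962). The tropomyosins TPM4 and TPM1 lay below both fitted WT libraries in every mutant library. Of all genes tested, 10.8% lay so in G245S and 10.5% in R273H. The share that did in both mutants was not counted. TPM4 was at 91.1 and 101 CPM in WT, 66.7 to 80.6 CPM in G245S and 67.1 to 77.8 CPM in R273H, at −0.38 on the log2 scale in G245S (edgeR's adjusted p = 0.332) and −0.41 in R273H (adjusted p = 0.172). TPM1 had −0.38 (adjusted p = 0.332) and −0.32 (adjusted p = 0.702). LMOD1, a filament nucleator of smooth muscle with the highest estimate of the lists in both comparisons, had 1.20 and 1.34 (adjusted p = 0.684 and 0.602), from 3 to 21 counts per library. None of these genes passed in the fits that these values come from, while TPM4 passed in R273H without a filter on low counts.

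The promoters of the actins differ in the letters of the SRF element. RefSeq windows of 250 bases before to 50 after each start (GRCh38.p14) were found for 6 of the 9 members, 10 windows in all, and ACTB, TAGLN and MYL9 had none in the table. The CArG box (CC, then 6 bases of A or T, then GG, which reads alike on both strands) was present in windows of ACTG2, ACTC1, ACTG1 and SRF and in that of ACTA1, and absent from those of ACTA2, CNN1 and FAS. It is in 1.29% of all 35116 windows. The window of the downstream ACTA2 start held 2 CArG-like boxes, in which 1 of the 6 central bases is G or C, beginning 121 and 71 bases before the start. A window of ACTC1 held 3 such boxes and that of ACTA1 held 2, and 6.94% of all windows hold 1 or more. The sequences below show the exact boxes, and for ACTA2 the CArG-like boxes, in capitals, 5′ to 3′ on the strand of each gene.
ACTA2, chr10:88952804-88952923, minus strand: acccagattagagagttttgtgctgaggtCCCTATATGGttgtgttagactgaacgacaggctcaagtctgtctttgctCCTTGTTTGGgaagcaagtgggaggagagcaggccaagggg
ACTG2, chr2:73892888-73892957, plus strand: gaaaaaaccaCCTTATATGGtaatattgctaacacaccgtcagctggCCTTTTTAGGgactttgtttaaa
SRF, chr6:43171229-43171268, plus strand: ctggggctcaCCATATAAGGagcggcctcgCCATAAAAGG
ACTC1, chr15:34795639-34795668, minus strand: gcgaaggggaCCAAATAAGGcaaggtggca
ACTG1, chr17:81512874-81512903, minus strand: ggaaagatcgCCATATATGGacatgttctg
ACTA1, chr1:229434172-229434201, minus strand: tgcccaacacCCAAATATGGctcgagaagg
The ACTA2 stretch lies before the start of the MANE transcript at chr10:88952773 and overlaps an exon of another ACTA2 transcript in the count table and an intron of STAMBPL1. ACTG2, ACTG1 and SRF, which hold the exact box, had no call in either mutant. A match is a description of these letters, not a site, and its absence from a window says nothing of SRF.

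ACTA2 has a second annotated start 38.6 kb upstream, in the region where FAS begins on the opposite strand. FAS (ENSG00000026103; chr10:88953813-89029605, plus strand) encodes a death receptor and is a known p53 target. A p53 half-site (3 purines, C, 2 bases of A or T, G, 3 pyrimidines, which reads alike on both strands; in 6.63% of all windows) lay 122 bases before a FAS start and 19 bases after the upstream ACTA2 start, the same bases in both windows. The window of that ACTA2 start held another half-site 219 bases before it, and that of the downstream start held none. ACTG1 also held a half-site, 86 bases before its start, which overlaps the last bases of its CArG box. The FAS element is shown because the ACTA2 and FAS starts share it.
FAS, chr10:88991299-88991328, plus strand: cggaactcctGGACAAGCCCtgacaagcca
This stretch lies in exons of FAS, of ACTA2 and of ENSG00000286116 in the count table. The last is a noncoding RNA gene on the strand of ACTA2, at a mean of 0.195 CPM over the fitted libraries.

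FAS was at 5.17 and 6.68 CPM in WT, at 1.73, 2.96 and 2.83 CPM in G245S, and at 1.61, 1.91 and 2.38 CPM in R273H. All 6 mutant libraries lay below both fitted WT libraries, a position held by 10.8% of all genes tested in G245S and 10.5% in R273H. WT replicate 3 was at 3.51 CPM from 5 counts. FAS fell in R273H, with a log2 fold change of −1.58 (95% interval −2.12 to −1.03, adjusted p = 0.0159 from edgeR), and had −1.25 in G245S (−1.81 to −0.68, adjusted p = 0.147). The R273H call was lost in DESeq2 (adjusted p = 0.0634), when WT replicate 3 was added (edgeR's adjusted p = 0.0739) and without WT replicate 2 (edgeR's adjusted p = 0.207), and it was kept in 9 of 16 alternatives. ACTA2 and FAS lie on opposite strands and share 387 exon bases, 6.05% of those of ACTA2, and counting used strand by the study's methods.

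The other neighbours had no call. Of the 40 other genes within 500 kb of ACTA2, 5 were tested in both comparisons with WT. STAMBPL1, a deubiquitinase whose span overlaps ACTA2 on the opposite strand, stood at −0.10 and 0.27 on the log2 scale (edgeR's adjusted p = 0.962 and 0.945). LIPA, a lysosomal lipase, had −0.20 and −0.16 (adjusted p = 0.777 and 0.930), and its 6 mutant libraries, 29.9 to 35.4 CPM, lay just below both fitted WT libraries (35.7 and 39.2 CPM). Such a position was held by 10.8% of all genes tested in G245S and 10.5% in R273H. WT replicate 3 held LIPA at 26.0 CPM, below all 6 mutant libraries. IFIT1 had −0.01 and 0.13, IFIT5 −0.33 and −0.38, and none of these 4 passed. The antisense RNA ACTA2-AS1 held 0 to 5 counts per library and was not tested. Its exons, on the opposite strand, cover 1814 exon bases of ACTA2, 28.3% of them.

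**Figure D5:**
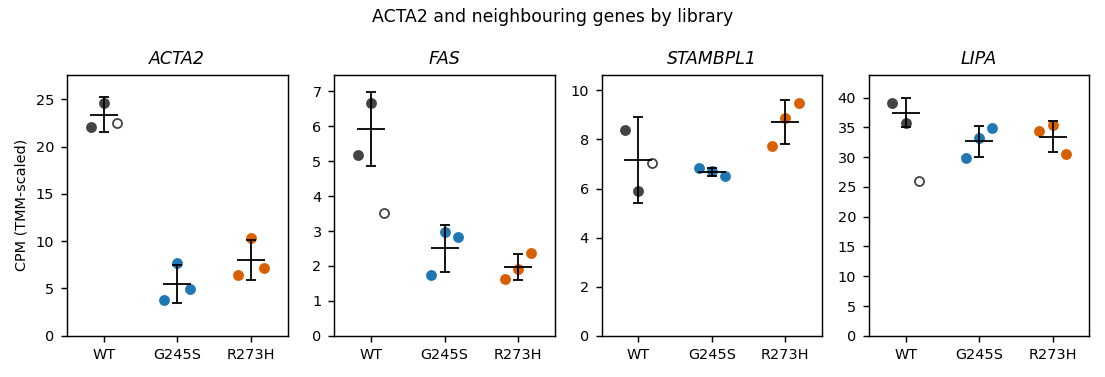
CPM (y axis, TMM-scaled, each from 0) of ACTA2 and 3 neighbouring genes by line (x axis). Filled points are the 8 fitted libraries, the open point is WT replicate 3 and the black bars are the mean ± SD of the fitted libraries (n = 2 for WT, n = 3 for each mutant). In ACTA2 and FAS all 6 mutant points lie below both fitted WT points, in LIPA they lie only just below (35.4 CPM against 35.7), and in STAMBPL1 WT and mutant points overlap.

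By exact matches in MANE transcripts, shared sequence was a limit for the abundant actins more than for ACTA2. The coding sequence of ACTA2 was 81.7% to 85.5% identical to those of the other 5 actins in GENCODE v44. Even so, 0% of the 1300 words of 50 bases (the shortest read kept) in its MANE transcript occurred in a transcript of another gene. The share was 10.9% for ACTB, 4.22% for ACTG1, 0.138% for ACTG2 and 65.5% for TAGLN, the last all from the overlapping gene model. For ACTA2 these exact matches cover a transcript of 1349 bases, while 6399 exon bases were counted. Its counts were not whole numbers in 4 of the 9 libraries, so some shared reads did enter them. The 51 actin copies by symbol (ACTBP, ACTG1P and POTE genes) summed to between 0.105% and 0.664% of the ACTB and ACTG1 counts in the 8 fitted libraries. Of these, 5 were tested in G245S and 9 in R273H, and 0 passed.

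Among genes with a mean of at least 5 CPM, the 5 that followed ACTA2 most closely over the 8 fitted libraries were neither members nor list genes. By Pearson's r of log2 CPM among 11631 genes with a mean of at least 5 CPM, they were UBE2M (0.99), which encodes a NEDD8-conjugating enzyme, the linker histone H1-10 (0.97), the transcription factor SOX9 (0.97), AEN (0.96), which encodes a nuclease, and GAMT (0.96), an enzyme of creatine synthesis. These libraries share a scaling and the difference between WT and mutants on which ACTA2 was selected. Moreover, 8 points are few for so many genes. AEN had a mean of 81.3 ± 1.52 CPM in WT (SD, n = 2), of 46.2 ± 2.66 CPM in G245S and of 50.7 ± 1.32 CPM in R273H (SD, n = 3 for both). Among members, r with ACTA2 was 0.64 for ACTG2, 0.61 for TAGLN, 0.42 for ACTB, 0.37 for MYL9, 0.20 for CNN1, 0.07 for ACTC1, −0.03 for SRF and −0.73 for ACTG1, and it was 0.84 for FAS. Of these, ACTG2, MYL9, CNN1, ACTC1 and FAS lay under the cut of 5 CPM and could not be ranked.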

How the data were processed

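RNA-seq of 9 libraries was used, with 3 biological replicates of each of the 3 lines. The authors filtered reads with fastp 0.24.0, aligned them to GRCh38 with STAR 2.7.11, removed duplicates by molecular identifier, and counted per gene with featureCounts of Subread 2.1.1, strand-specifically and with fractional sharing of reads that map to several genes. Expected counts, not normalized, were deposited, and they were rounded here to whole numbers. Another 9 per-sample columns (CPM) were not used. The exact Poisson interval and the floors cover counting error only. The intervals of fold changes come from the edgeR fits and include the variation between replicates.

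Genes were filtered with filterByExpr, scaled with TMM and compared in edgeR 4.0.16 (R 4.3.3) by its quasi-likelihood test. P-values were adjusted over all genes tested by Benjamini-Hochberg, with a threshold of 0.05. The members and gene lists were chosen with earlier results of these data known. The text names the 9 members, list genes past the threshold, the 3 most abundant genes of each list, genes overlapping or within 500 kb of ACTA2, and the 5 genes most like it, and says where others were chosen after their values were seen. Replicates of a line are biological, as the study states. DESeq2 1.42.0 was an alternative, with other scalings, filters, WT libraries and left-out replicates. The fits were tested on simulated data. Python 3.11.15, pandas 2.3.3 and Biopython 1.88 were used for tables and alignment. The level of p53 itself and the values of 1 list gene are not reported here.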

Additional observations from a re-analysis of the deposited data

Results flagged for a closer look

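Among the 9 members, TAGLN and MYL9 were singled out because WT replicate 3, the library outside the fits, held each at 10 counts or more and at least 2 times the highest value of the other 8 libraries. TAGLN was at 66.1 CPM there (93.5 counts), 3.93 times the highest other library. MYL9 was at 40.1 CPM (57 counts), 8.64 times the highest other library. The cause was not tested.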

How the results depend on the processing

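Over 46 alternatives, 0 members other than ACTA2 passed the threshold in any of them. The log2 fold change of ACTA2 lay between −2.42 and −1.88 in G245S and between −1.78 and −1.43 in R273H. The count of list genes past the threshold was 0 and became 1 in some alternatives. Without a filter on low counts it was 1 in G245S, 1 in R273H (TPM4) and 1 between the mutants. That setting called 144, 93 and 125 genes in all, against 20, 22 and 0. Leaving out each replicate gave 0 to 1 list genes in G245S (1 without G245S replicate 2). The replicate block gave 1 between the mutants and called 59 genes in all there, 76 in G245S and 47 in R273H. It called 0 other members, and FAS passed in G245S (−1.35, edgeR's adjusted p = 0.00513). Whether the replicate numbers pair the libraries was not clear. Deviations of same-numbered G245S and R273H libraries correlated at 0.26, 0.37 and 0.01, and those of differently numbered libraries at −0.33 to 0.14. The differences between WT replicates 1 and 2 correlated at −0.20 and −0.18 with those of the mutants. WT replicates 1 and 3, or 2 and 3, in place of 1 and 2 were chosen after the data were seen and called 0 other members, with TAGLN in G245S at −1.40 and −1.57 and MYL9 at −2.27 and −2.28. The causes were not tested.

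With 2 WT libraries, the intervals of low genes were wide, and that of ACTG2 in G245S ran from 1.00 to 4.30 times lower. ACTC1 and CNN1 lay near the floor of 3 counts (0.310 to 0.410 CPM in the fitted libraries), where no difference was detectable. All libraries come from 1 line per construct, so line and construct cannot be told apart.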

Other observations

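Some genes, chosen after their values were seen, were higher in WT replicate 3 than in every other library, and 2 of them, KLK2 and TFF1, were nearly absent elsewhere. KLK2, a kallikrein of the prostate, was at 44.99 CPM there and at most 0.345 CPM in the other 8 libraries. TFF1, a secreted trefoil peptide of the stomach, was at 27.4 CPM and at most 0.128 CPM elsewhere. APOE was at 88.6 CPM beside at most 7.11 CPM, and FN1 at 112 CPM beside at most 22.4 CPM. ACTA2, at 22.5 CPM, stayed within the range of the other WT libraries to 0.963 times their mean, while ACTB was at 0.650 times it.

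Over the 8 fitted libraries, the log2 CPM of TAGLN correlated with that of ACTG2 at a Pearson's r of 0.89 and with that of MYL9 at 0.71, and ACTB correlated with ACTG1 at 0.18. These are descriptions over 8 libraries that share a scaling.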
